A study of Homo sapiens with 44 samples.

Results

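The 8 libraries described here are those of human IMR5/75 neuroblastoma cells collected 12 and 14 h after release from a thymidine block, out of 44 libraries in the series, and they were chosen by the time and treatment in their labels. IMR5/75 is an established cell line with an amplified MYCN gene, and the derivative used carries a short hairpin RNA against MYCN that tetracycline switches on. All libraries, controls included, are labelled with this derivative, whose origin from a single clone or a pool the labels do not give, and all cells went through an 18 h thymidine treatment that holds them at the G1/S boundary. The 4 groups of 2 libraries each are Tet plus (tetracycline given, hairpin on) at 12 h and at 14 h, and Tet minus (no tetracycline) at 12 h and at 14 h. The series gives 2 biological replicates, and at 12 and 14 h a Tet plus library shares its lane number with the Tet minus library of its time and replicate number, which is not so at 16 to 22 h. No non-targeting hairpin with tetracycline is among these samples, so an effect of the drug itself and of the hairpin cannot be told apart. The labels do not say when tetracycline was added relative to the block.

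MYCN is a transcription factor of the MYC family that binds DNA with its partner MAX, most often at the E-box CACGTG, and raises genes for ribosome assembly, nucleotide synthesis and cell cycle entry. Proteins of the MXD family, MNT and MGA compete for MAX and repress such sites. After mitosis a cycling cell licenses its replication origins by loading the MCM helicase, and E2F factors, freed from the pocket proteins RB1, RBL1 and RBL2 by cyclin-dependent kinases, switch on cyclin E and the replication genes before the next S phase. Neuroblastoma arises from the sympathetic lineage, whose cells make and store noradrenaline.

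The 8 libraries held 17839275 to 25313546 gene counts, 15950 to 16371 genes with a count, and 2.27 to 4.25% of counts from the ERCC spike-in RNAs. The spike-in share averaged 3.33% in Tet minus and 2.89% in Tet plus and was higher in Tet plus in 2 of 4 pairs (2-sided exact permutation test within pairs, p = 0.625, with 0.125 the smallest p that 4 pairs allow). These 4 pairs, on which later counts of pairs also rest, come from 2 biological replicates at 2 times and may not be independent. Of 13 noradrenergic neuroblastoma markers 11 passed the low-count filter, among them HAND2 and CHGA, while TH, the first enzyme of catecholamine synthesis, was at most 0.207 CPM (read counts scaled to a common library size with TMM factors) and STMN2 at most 0.108 CPM. The summed level of these markers ran from 1012 to 1541 CPM in Tet minus and from 1482 to 2109 CPM in Tet plus. Of 19 mesenchymal and Schwann-like markers 13 passed the filter, among them VIM (576 to 884 CPM) and FN1 (87.3 to 246 CPM). COL1A2 and SOX10 were at 0 in all 8 libraries. The 19 markers summed to 1035 to 1475 CPM in Tet minus and to 933 to 1533 CPM in Tet plus. Immune markers summed to at most 1.24 CPM in Tet minus and 1.52 CPM in Tet plus, with 5 of 10 (CD3D, CD3E, MS4A1, FCGR3A and NKG7) at 0 throughout. Endothelial and epithelial markers, with KRT19 at 0 throughout, summed to 1.98 to 2.64 CPM in Tet minus and 3.21 to 4.16 CPM in Tet plus, and the part of any of these levels in the results was not tested.

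The level of 35 mitotic genes was used to place the cells at 12 and 14 h in the cycle. In Tet minus their summed level was highest at 8 h (mean 12864 CPM), stood at 71.0% of that at 12 h and at 50.7% at 14 h, against 38.0% at 0 h. In Tet plus it was highest at 10 h (mean 13272 CPM), stood at 83.0% of that at 12 h and at 56.2% at 14 h, against 34.8% at 0 h. Mitotic transcripts were therefore still above their 0 h level at both times in both arms, and the samples are called here by their hours and not by a phase. The 26 genes of the origin licensing and helicase list are described over the same hours. They are called licensing genes below for short, though the list also holds other origin and fork genes, such as GMNN, CDC45 and CLSPN. Their sum went in Tet minus from a mean of 4412 CPM at 10 h to 4804 CPM at 12 h and 5388 CPM at 14 h. In Tet plus it went from 3350 CPM to 3114 CPM and 2931 CPM. CCNE2, a cyclin of the G1/S step, went in Tet minus from a mean of 20.6 CPM at 10 h to 35.2 CPM at 12 h and 55.1 CPM at 14 h, and in Tet plus from 17.0 CPM to 17.0 CPM and 20.0 CPM. These courses are described from 2 libraries a point and were not tested as such. The lanes differ between 12 and 14 h, so a change over time within an arm and a change of lane cannot be told apart.

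**Figure D1:**
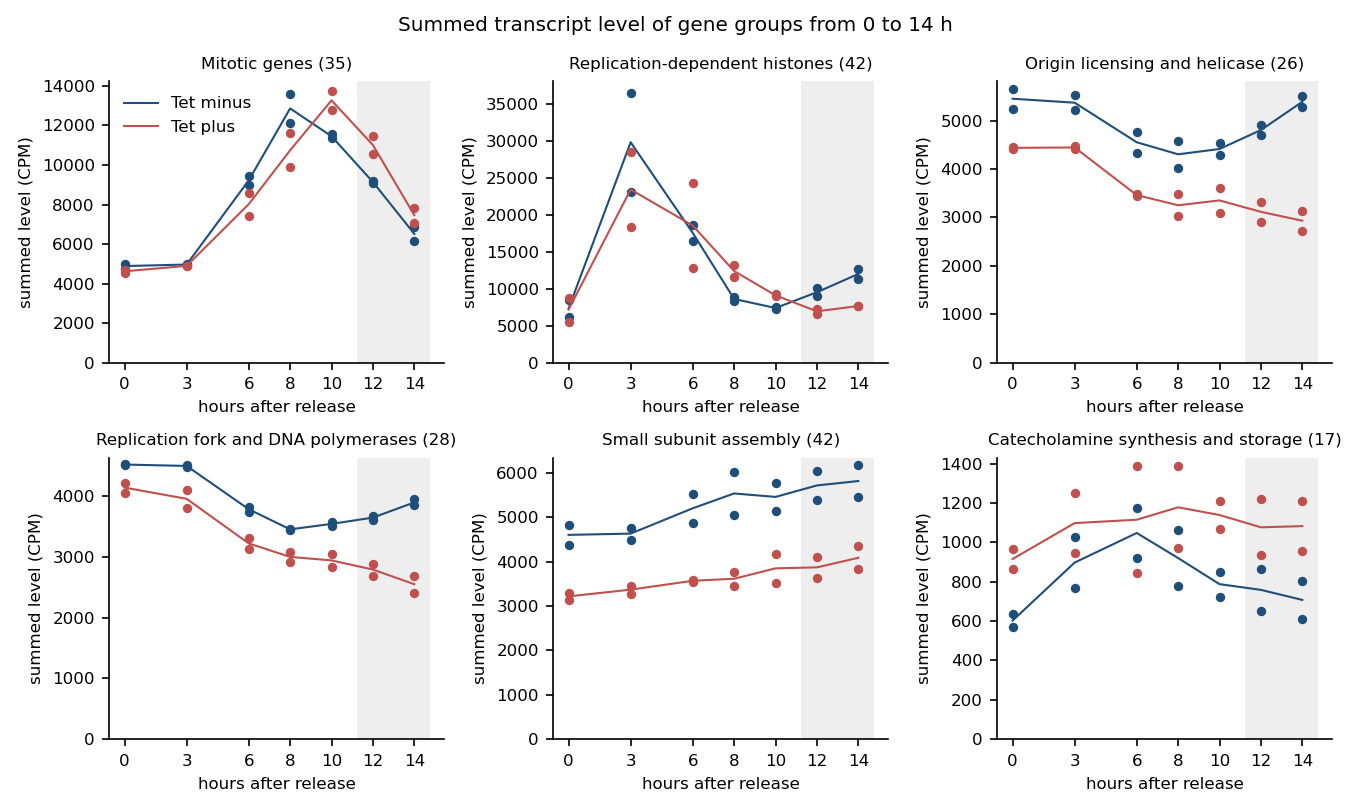
Summed level of 6 gene groups (CPM, vertical axis; in parentheses the number of genes that passed the count filter over all 44 libraries) against hours after release, with points for libraries and lines for the mean of 2, Tet minus in blue and Tet plus in red; the grey band marks 12 and 14 h. At 14 h the licensing genes average 5388 CPM in Tet minus and 2931 CPM in Tet plus.

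MYCN itself, the target of the hairpin, was measured at 1473 and 1437 CPM at 12 h and at 1248 and 1223 CPM at 14 h in Tet minus. MYCN in Tet plus stood at 1058 and 1094 CPM at 12 h and at 997 and 1189.8 CPM at 14 h. All 4 Tet plus libraries lay below all 4 Tet minus libraries, and the 2 arms came closest in replicate 2 at 14 h. MYCN was lower over both times together (log2 fold change -0.31, SE 0.0581, adjusted p 0.000342, edgeR quasi-likelihood test with Benjamini-Hochberg adjustment over 13925 genes): -0.44 at 12 h (adjusted p 0.000249) and -0.18 at 14 h, where it did not pass (adjusted p 0.0761). Scaled to the spike-in RNAs instead, the difference was -0.04 (SE 0.318, adjusted p 0.968 in edgeR) and MYCN was not called. MYCN overlaps an antisense gene, and the strand setting of the counting is not given in the sources used here. These are bulk samples, in which fewer cells of a type and less RNA per cell cannot be told apart.

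Of the 13 genes of the MYC network, 4 were higher and 3 lower in Tet plus, where 48.2% of all genes tested passed in either direction; without the replicate number in the model 3 were higher and 1 lower. With the replicate number in the model the share that passed is near that over all genes, so that count says nothing particular of the network. MXD4, a MAX-binding repressor, stood at 65.5 and 48.9 CPM at 12 h and at 79.2 and 49.95 CPM at 14 h in Tet minus. MXD4 in Tet plus stood at 131 and 108 CPM at 12 h and at 141 and 132 CPM at 14 h. It was about 2-fold higher in Tet plus with no overlap between arms (log2 fold change 1.09, SE 0.072, adjusted p 7.13e-09). MXD1 stood at 8.75 and 7.35 CPM at 12 h and at 9.01 and 7.50 CPM at 14 h in Tet minus. MXD1 in Tet plus stood at 12.9 and 13.1 CPM at 12 h and at 17.0 and 14.2 CPM at 14 h, again without overlap (log2 fold change 0.81, SE 0.0916, adjusted p 1.98e-06). MXD3, the family member usually expressed in proliferating cells, was higher in 4 of 4 pairs (log2 fold change 0.79, SE 0.0838, adjusted p 9.45e-07), though its arms overlapped, its 14 h libraries being lower than its 12 h libraries in each arm and replicate. MLXIPL, a glucose-responsive factor, also passed (log2 fold change 0.38, SE 0.139, adjusted p 0.0336), but it lost the call in DESeq2 (adjusted p 0.143), with spike-in scaling (0.33), without the replicate number (0.442) and in a fit of all 44 libraries (0.193). It also lost it without Tet plus or Tet minus replicate 1 of 12 h or replicate 2 of 14 h (0.0692 to 0.17). MGA (-0.28, adjusted p 0.000677) and MXI1 (-0.24, adjusted p 0.0077) were lower, but neither passed with spike-in scaling in edgeR (-0.0022 and 0.03, adjusted p 0.999 and 0.974) or without the replicate number (adjusted p 0.162 and 0.153). MXI1 also lost the call in the fit of all 44 libraries (adjusted p 0.0891). MAX (-0.03, adjusted p 0.742), MLX (0.05, adjusted p 0.465) and MNT (-0.22, adjusted p 0.0624) did not pass. MNT passed without Tet plus or Tet minus replicate 2 of 14 h (adjusted p 0.0247 and 0.00944). MYC was at most 0.907 CPM in the 8 libraries and did not pass (0.85, adjusted p 0.0715), although it did without Tet minus 12 h replicate 2 (1.12, adjusted p 0.0485).

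**Figure D2:**
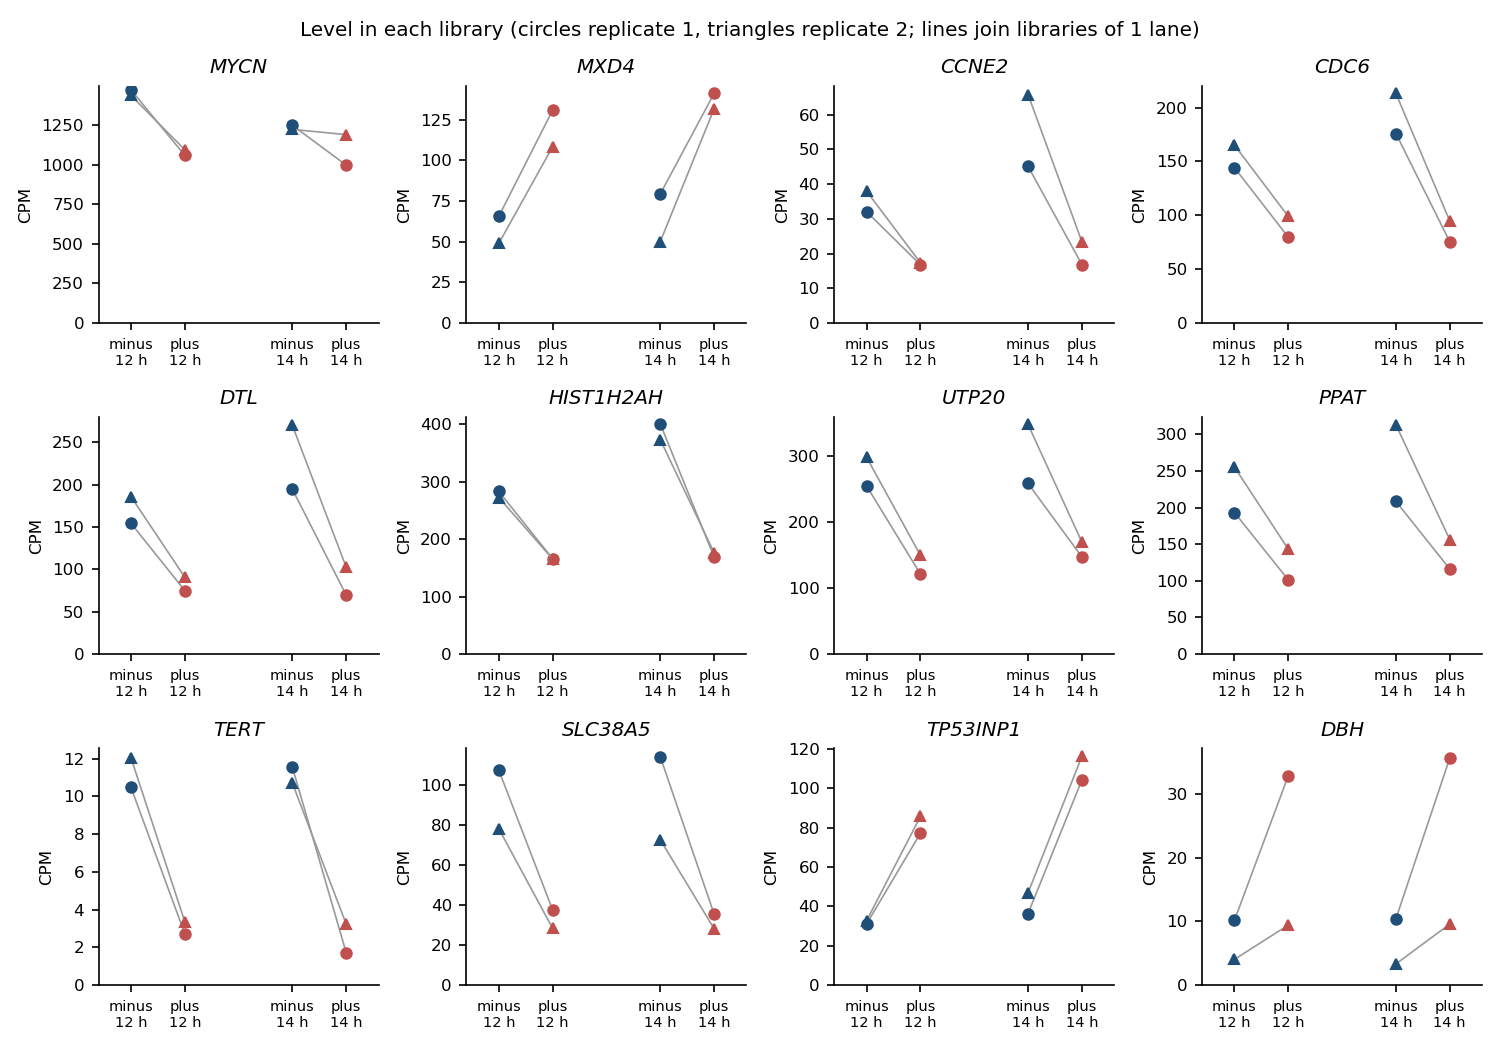
Level (CPM, vertical axis from 0) of 12 genes in each of the 8 libraries, Tet minus blue and Tet plus red; circles are replicate 1, triangles replicate 2, and grey lines join the 2 libraries of a lane. In each panel all 4 lines run in one direction, and in DBH the arms overlap because replicate 1 lies above replicate 2 in both.

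Across the transcriptome, 6714 of 13925 genes differed between arms at 12 and 14 h together, 3498 higher in Tet plus (25.1%) and 3216 lower (23.1%), with a median log2 fold change over all genes of 0.03. Most differences were small: a difference of 2-fold or more was seen in 273 higher (1.96%) and 72 lower genes (0.517%). The arms did not overlap in 1566 genes that were higher (11.2%) and 1671 that were lower (12%). At 12 h alone 3941 genes passed (28.3%) and at 14 h alone 4572 (32.8%), and the 3120 genes called at both times (22.4%) all had the same sign. The 12 h count rested on each of its libraries. It was 2282 without Tet plus replicate 1 and 1959 without Tet minus replicate 1. With replicate 2 left out it was 2336 for Tet plus and 1842 for Tet minus. Without the replicate number in the model 2197 genes passed at 12 and 14 h together, 0 at 12 h (2104 at an unadjusted p under 0.05) and 136 at 14 h. Scaled to the spike-in RNAs, the median over all genes became 0.30 and 447 genes passed, 434 higher and 13 lower, so that directions here are relative to the bulk of genes. Of the 162 genes named by rule that were called, 37 kept the call under that scaling. Group counts that follow, where no other fit is named, compare with the shares over all genes, 25.1% higher and 23.1% lower. Counts from another fit compare with all genes of that fit. Without the replicate number 1023 genes were higher and 1174 lower of 13925. The fit of all 44 libraries had 2259 higher and 2203 lower of 14534.

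**Figure D3:**
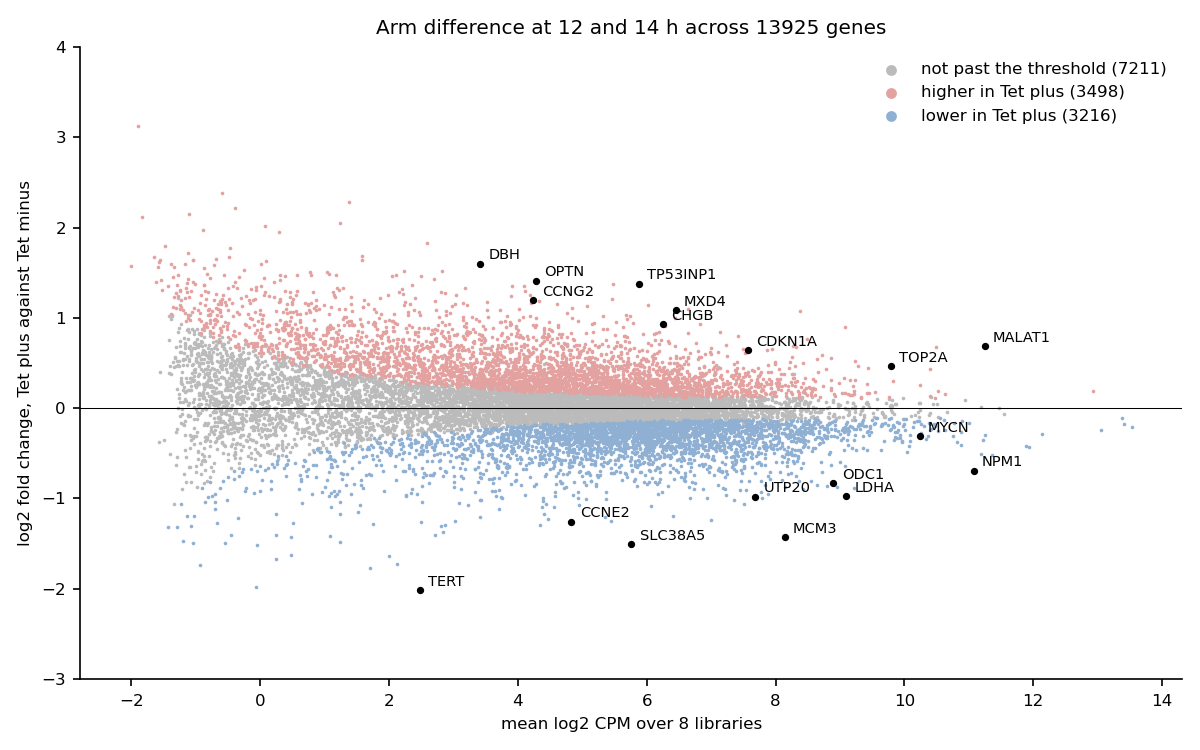
Log2 fold change of Tet plus against Tet minus (vertical axis) against the mean log2 CPM over 8 libraries for 13925 genes; red genes were higher, blue lower and grey did not pass, and black points are genes named in the text. TERT lies at -2.02 and DBH at 1.60, and MYCN at -0.31.

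Genes of the origin licensing and helicase group were lower almost without exception. Of 26 such genes 25 were lower and 0 higher, with a median log2 fold change of -0.67; ORC4 alone did not pass (0.14, adjusted p 0.0512), and without Tet minus 14 h replicate 2 the count higher was 1. MCM3, a subunit of the MCM2-7 helicase that is loaded at origins, stood at 408 and 436 CPM at 12 h and at 509 and 507 CPM at 14 h in Tet minus. MCM3 in Tet plus stood at 161 and 180.3 CPM at 12 h and at 154 and 195 CPM at 14 h. The Tet plus libraries held well under the level of any Tet minus library (log2 fold change -1.43, SE 0.0632, adjusted p 1.73e-10). CDC6, which loads the helicase together with the origin recognition complex, stood at 144 and 165 CPM at 12 h and at 176 and 213 CPM at 14 h in Tet minus. CDC6 in Tet plus stood at 79.7 and 99.0 CPM at 12 h and at 75.6 and 94.8 CPM at 14 h. All 4 Tet plus libraries were at most at 99.0 CPM and all 4 Tet minus libraries at least at 144 CPM (log2 fold change -0.996, SE 0.0701, adjusted p 1.27e-08). ORC1, the largest origin recognition subunit (log2 fold change -1.02, SE 0.056, adjusted p 1.41e-09), and MCM2 (log2 fold change -0.88, SE 0.0579, adjusted p 6.86e-09) were lower in 4 of 4 pairs with no overlap. The group's median was -0.57 at 12 h and -0.82 at 14 h. Lower licensing genes numbered 18 without the replicate number in the model and 1 with spike-in scaling, where the group median was -0.40.

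The RefSeq promoter of MCM3 (GRCh38.p14, minus strand, chr6:52284693-52284992, 250 bases before to 50 after the start) is shown because this gene had the lowest adjusted p of the licensing group; capitals mark a match to TTTCCCGC, a form of the E2F site, that begins 174 bases before the start. Other forms of the site, such as the TTTCGCGC nearer the start here, were not searched and are neither marked nor counted.
MCM3: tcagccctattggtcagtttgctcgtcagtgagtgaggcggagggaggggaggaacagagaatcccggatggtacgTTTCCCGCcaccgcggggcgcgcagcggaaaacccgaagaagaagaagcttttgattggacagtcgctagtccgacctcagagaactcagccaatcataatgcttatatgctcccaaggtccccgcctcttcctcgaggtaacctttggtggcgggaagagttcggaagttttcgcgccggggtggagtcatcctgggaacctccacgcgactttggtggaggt
TTTGGCGC or TTTCCCGC, searched on both strands, occurred in 10 of the 23 licensing promoters that the table holds and in 5 of 12 promoters of the E2F group. Among groups with most members higher, they occurred in 4 of 19 p53 target promoters and in 3 of 21 FOXO target and quiescence promoters. In the neuronal cytoskeleton and synapse group they occurred in 0 of 29. Either one is held by 3.58% of the 10640 promoters matched to tested genes and by 2.31% of all 27305 promoters listed. The matched promoters cover 77.0% of tested genes, so that their share is only a description. No promoter held overlapping matches of the 3 motifs searched, and a match is a description of the letters only.

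At the replication fork 26 of 28 genes were lower and 0 higher (median -0.47), with CHTF18 (-0.08, adjusted p 0.354) and ASF1B (-0.12, adjusted p 0.228) not passing. PCNA, the sliding clamp, stood at 287 and 291 CPM at 12 h and at 317 and 334 CPM at 14 h in Tet minus. PCNA in Tet plus stood at 186 and 190.4 CPM at 12 h and at 174 and 200.2 CPM at 14 h. The arms were apart in every pair (log2 fold change -0.71, SE 0.0539, adjusted p 2.72e-08). UHRF1, which brings the maintenance DNA methyltransferase to new DNA, was lower too (log2 fold change -0.86, SE 0.078, adjusted p 1.98e-07). RFC4, a clamp loader subunit, was lower in 4 of 4 pairs (-0.68, adjusted p 2.8e-07). Of the fork genes 18 were lower without the replicate number in the model and 0 with spike-in scaling (median -0.19). Of 14 genes for deoxynucleotides and pyrimidines 11 were lower (6 without the replicate number in the model) and 0 higher, median -0.34, led by thymidine kinase TK1 (log2 fold change -0.87, SE 0.0835, adjusted p 3.51e-07), with DUT (-0.49, adjusted p 9.33e-06) among them.

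E2F and cyclin genes of the G1/S step were mostly lower. In the E2F and pocket protein group 8 of 14 were lower (5 without the replicate number) and 2 higher (0 without the replicate number), the latter TFDP2, an E2F partner (0.21, adjusted p 0.00338), and RBL2, the pocket protein p130 of resting cells (0.28, adjusted p 0.000319). E2F2, an activating E2F, stood at 111 and 84.8 CPM at 12 h and at 122 and 102 CPM at 14 h in Tet minus. E2F2 in Tet plus stood at 66.3 and 51.6 CPM at 12 h and at 55.1 and 47.2 CPM at 14 h, without overlap (log2 fold change -0.93, SE 0.0732, adjusted p 3.92e-08). E2F1 (-0.53, adjusted p 8.7e-07), E2F5 (-1.003, adjusted p 7.56e-09) and the transcription factor gene ZNF367 (2-fold, adjusted p 2.39e-07) were lower as well. Of 16 G1 cyclins and kinases 9 were lower and 0 higher, with a median of -0.23 that became 0.04 with spike-in scaling. CCNE2 stood at 32.1 and 37.9 CPM at 12 h and at 45.1 and 65.8 CPM at 14 h in Tet minus. CCNE2 in Tet plus stood at 16.8 and 17.3 CPM at 12 h and at 16.8 and 23.4 CPM at 14 h. The Tet plus libraries kept within 16.8 to 23.4 CPM at both times (log2 fold change -1.26, SE 0.0951, adjusted p 2.71e-08). CCNE1, the other cyclin E (log2 fold change -1.10, SE 0.0746, adjusted p 9.34e-09), CDC25A, the phosphatase that activates its kinase (log2 fold change -0.95, SE 0.0707, adjusted p 2.13e-08), and CDK4, the partner of D cyclins (log2 fold change -0.80, SE 0.0531, adjusted p 7.13e-09), were lower in 4 of 4 pairs. DTL, which directs replication licensing factors to destruction in S phase, stood at 154 and 186 CPM at 12 h and at 195 and 269.8 CPM at 14 h in Tet minus. DTL in Tet plus stood at 75.0 and 90.8 CPM at 12 h and at 69.5 and 102 CPM at 14 h, a log2 difference of -1.04 at 12 h and -1.44 at 14 h (log2 fold change -1.24, SE 0.0759, adjusted p 3.66e-09 for both). The change between these times did not pass (adjusted p 0.802).

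Replication-dependent histone genes, whose transcripts accumulate in S phase and lack a poly(A) tail, are retained when ribosomal RNA is depleted from total RNA, as here. Of 38 tested 37 were lower and 1, HIST1H4E (0.23, adjusted p 0.0132), was higher (0 without the replicate number, in a fit of all 44 libraries, or without any 1 of the 4 replicate 1 libraries), with a median of -0.67. HIST1H2AH, a core histone H2A gene, stood at 283 and 273 CPM at 12 h and at 401 and 374 CPM at 14 h in Tet minus. HIST1H2AH in Tet plus stood at 166 and 166 CPM at 12 h and at 169 and 177 CPM at 14 h. Tet plus kept to 166 to 177 CPM at both times, below every Tet minus library (log2 fold change -0.95, SE 0.0707, adjusted p 2.1e-08). HIST2H3D (log2 fold change -0.87, SE 0.0604, adjusted p 1.06e-08) and HIST3H2A (log2 fold change -0.87, SE 0.0597, adjusted p 1.02e-08) were lower in all 4 pairs. Of the histone genes 31 were lower without the replicate number and 0 with spike-in scaling (median -0.39). Many of these genes are near-identical copies, so single members are uncertain where reads could be split among copies.

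Whether the arm difference itself differed from that earlier in the course was tested against 8 and 10 h and against 3 and 6 h, in 24 libraries that share none between windows. Against 8 and 10 h 36 of 14302 genes passed (0.252%). Of these 33 were more negative at 12 and 14 h (0.231%), 23 of them replication-dependent histones, and 3 more positive (0.021%). The histone median was 0.42 at 8 and 10 h and -0.51 at 12 h and -0.80 at 14 h, so that at 8 and 10 h histone transcripts were higher in Tet plus by median and at 12 and 14 h lower. HIST1H2AB differed by -1.39 between windows (adjusted p 0.000784), HIST1H3D by -1.32 (adjusted p 0.000784) and HIST1H2AH by -1.25 (adjusted p 0.00112). The 10 others that were more negative include CCNE2 (-1.12, adjusted p 0.0132), DTL (-0.87, adjusted p 0.00111), CDC6 (-0.60, adjusted p 0.0132) and WDR76 (-0.78, adjusted p 0.0144). The 3 that were more positive are TNFAIP8L1 (0.997, adjusted p 0.0111), SUN2, a nuclear envelope protein (0.59, adjusted p 0.0314; called in 2 of 8 fits that left out 1 library), and the small nucleolar RNA SNORA61. With any 12 h library left out, SUN2 missed the threshold, as it did without replicate 1 of Tet plus or replicate 2 of Tet minus at 14 h (adjusted p 0.0743 to 0.114). The count was 12 without Tet plus 14 h replicate 1. With replicate 2 of 12 h left out it was 22 for Tet plus and 18 for Tet minus. It was 59 in DESeq2, 8 without the replicate number in the model and 0 with spike-in scaling in edgeR (45 at an unadjusted p under 0.05).

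Against 3 and 6 h 79 genes passed (0.552%), 49 more negative (0.343%) and 30 more positive (0.21%) at 12 and 14 h. The more negative genes included genes of the G1/S step: CCNE2 (-1.31, adjusted p 0.00442), DTL (-1.27, adjusted p 9.28e-06), ZNF367 (-1.25, adjusted p 0.000658), CCNE1 (-0.99, adjusted p 0.0066) and CDC6 (-0.85, adjusted p 0.000658), with 8 licensing and 8 fork genes in all. At 3 and 6 h itself the arm difference of CCNE2 was 0.04 and that of DTL 0.01. The 35 mitotic genes had a median arm difference of -0.09 at 3 and 6 h. PLK1 was at -0.62 and UBE2C at -0.33 then, against 0.27 and 0.63 at 12 and 14 h. The more positive genes included 8 of 35 mitotic genes, with UBE2C, the ubiquitin-conjugating enzyme of the anaphase-promoting complex, at 0.95 (adjusted p 0.00726) and the kinase PLK1 at 0.88 (adjusted p 0.014). The spindle protein PSRC1 (0.91, adjusted p 0.014) and the helicase PIF1 (1.22, adjusted p 0.00743) were of the same direction. PLK1 missed the threshold without Tet plus 14 h replicate 1 (adjusted p 0.0517) and PSRC1 without Tet minus 12 h replicate 1 (adjusted p 0.0528). This count depended on single libraries. With replicate 1 of 12 h left out it was 27 for Tet plus and 29 for Tet minus, and with replicate 2 of 12 h left out 36 and 28. With replicate 1 of 14 h left out it was 27 for Tet plus and 139 for Tet minus, and without Tet minus 14 h replicate 2 it was 31. It was 267 in DESeq2, 1 without the replicate number in the model and 0 with spike-in scaling in edgeR (16 at an unadjusted p under 0.05). Between 12 and 14 h 0 genes changed their arm difference in edgeR (477 at an unadjusted p under 0.05, 3.43%), while DESeq2 called 11, all lower. Leaving out replicate 1 of 12 h gave 2 for Tet plus and 1 for Tet minus, and replicate 2 of Tet plus at 12 h 1. Leaving out replicate 1 of 14 h gave 7 for Tet plus and 16 for Tet minus, and replicate 2 of Tet plus at 14 h 8.

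**Figure D4:**
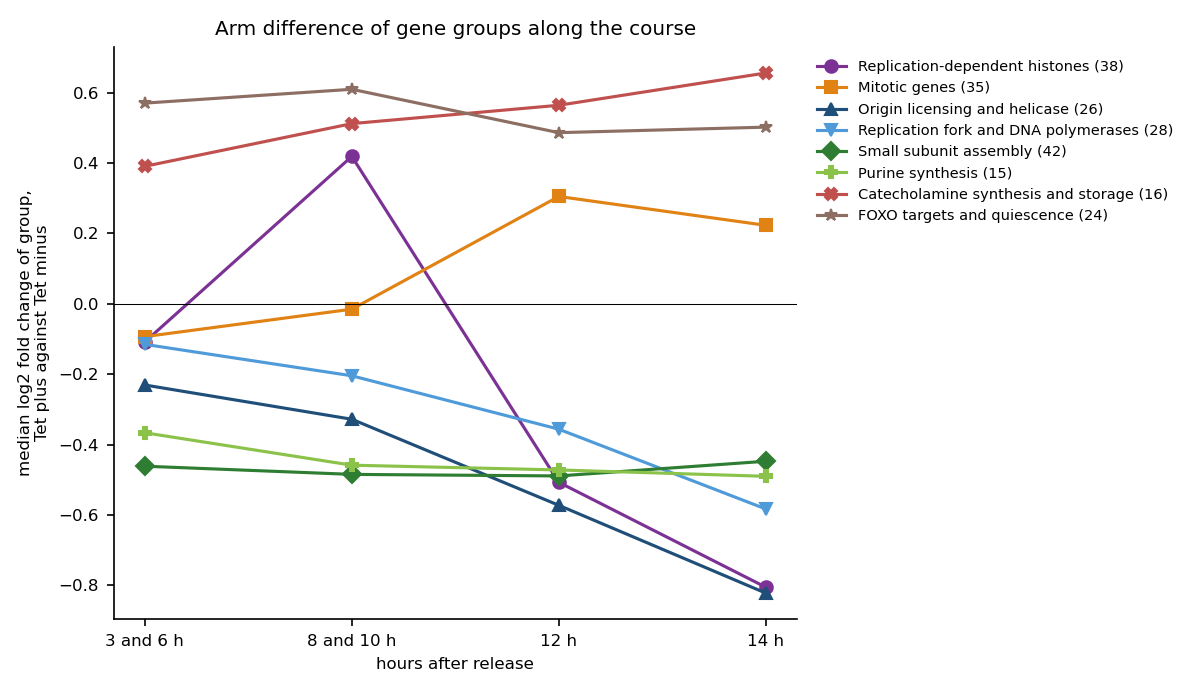
Median log2 fold change of Tet plus against Tet minus (vertical axis) of 8 gene groups at 3 and 6 h, 8 and 10 h, 12 h and 14 h; lines join the medians of a group and numbers in parentheses are genes tested. Histone genes go from 0.42 at 8 and 10 h to -0.80 at 14 h and licensing genes from -0.33 to -0.82, and small subunit assembly stays between -0.45 and -0.49.

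Mitotic genes ran the other way. Of 35, 23 were higher in Tet plus and 2 lower (9 and 1 without the replicate number in the model), with a median of 0.26. UBE2C stood at 147 and 95.2 CPM at 12 h and at 87.0 and 53.3 CPM at 14 h in Tet minus. UBE2C in Tet plus stood at 214 and 157 CPM at 12 h and at 135 and 81.2 CPM at 14 h. The 14 h libraries were lower than the 12 h libraries in both arms, the arms overlapped, and within each pair Tet plus was higher (log2 fold change 0.63, SE 0.0567, adjusted p 1.74e-07). TOP2A, the topoisomerase of chromosome condensation (log2 fold change 0.46, SE 0.0539, adjusted p 2.72e-06), CDC25C, which activates CDK1 (log2 fold change 0.62, SE 0.0749, adjusted p 3.96e-06), and ASPM, a spindle pole protein (log2 fold change 0.55, SE 0.0681, adjusted p 5.09e-06), were higher in 4 of 4 pairs. The 2 lower genes were MYBL2, a transcription factor that is itself an E2F target (-0.44, adjusted p 5.75e-05), and HMMR (-0.31, adjusted p 0.00298). CCNB1 (0.12, adjusted p 0.0893) and CDK1 (0.24, adjusted p 0.06) did not pass. The later peak of the summed mitotic level in Tet plus, 10 h against 8 h, stands beside this result, and its part in it was not tested.

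Inhibitors of cyclin-dependent kinases and genes of growth arrest were mostly higher. Of 9 CDK inhibitor and cyclin G genes 7 were higher and 0 lower (median 0.39), with 1 lower when replicate 2 was left out of Tet minus at 12 h or of Tet plus at 14 h. CCNG2, an unconventional cyclin of arrested cells, stood at 12.2 and 11.8 CPM at 12 h and at 11.5 and 14.4 CPM at 14 h in Tet minus. CCNG2 in Tet plus stood at 25.3 and 29.2 CPM at 12 h and at 26.8 and 33.4 CPM at 14 h, without overlap (log2 fold change 1.20, SE 0.0785, adjusted p 6.72e-09). CDKN1A, which encodes p21, was higher by a smaller ratio (log2 fold change 0.65, SE 0.0496, adjusted p 2.93e-08), and CDKN1C (1.19, adjusted p 2.22e-07) and CDKN2D (1.07, adjusted p 2.12e-06) were about 2-fold higher. Of 24 FOXO target and quiescence genes 17 were higher (11 without the replicate number) and 1, TXNIP (-0.34, adjusted p 0.00671), was lower (0 without the replicate number or in DESeq2), median 0.49. PIK3IP1, an inhibitor of PI3 kinase, stood at 5.29 and 5.55 CPM at 12 h and at 5.83 and 5.97 CPM at 14 h in Tet minus. PIK3IP1 in Tet plus stood at 11.5 and 12.0 CPM at 12 h and at 15.9 and 17.9 CPM at 14 h (log2 fold change 1.33, SE 0.101, adjusted p 2.66e-08). SESN3 (0.89, adjusted p 7.13e-09) and HBP1, a repressor of cell cycle genes (0.76, adjusted p 4.59e-08), were also higher without overlap.

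Of 23 genes known as p53 targets 15 were higher (6 without the replicate number, 9 in a fit of all 44 libraries) and 1, AEN (-0.51, adjusted p 4.28e-07), was lower, median 0.24. TP53INP1 stood at 31.1 and 32.7 CPM at 12 h and at 36.4 and 46.9 CPM at 14 h in Tet minus. TP53INP1 in Tet plus stood at 77.2 and 85.7 CPM at 12 h and at 104 and 116 CPM at 14 h. Every Tet plus library lay above every Tet minus library (log2 fold change 1.38, SE 0.0606, adjusted p 1.73e-10), and the arm difference at 8 and 10 h was of like size (1.495). SPATA18 (1.13, adjusted p 1.18e-07) and BTG2 (0.62, adjusted p 2.84e-07) were higher, whereas MDM2, the p53 ubiquitin ligase, did not pass (0.08, adjusted p 0.292). In the BCL2 family 6 of 14 were higher (2 without the replicate number) and 2 lower. The proapoptotic BBC3 (0.87, adjusted p 1.23e-06) and the antiapoptotic BCL2 (0.59, adjusted p 4.48e-06) were both among the higher, and BID (-0.49, adjusted p 6.75e-06) and PMAIP1 (-0.21, adjusted p 0.0257) were lower, a count of 1 without Tet minus 12 h replicate 1 or any of the 14 h libraries but Tet minus replicate 1. Of 34 lysosome and autophagy genes 16 were higher and 4 lower (median 0.15). The count higher was 8 without Tet minus 12 h replicate 1, 9 without Tet plus 14 h replicate 1, 8 in a fit of all 44 libraries and 4 without the replicate number. The autophagy receptor OPTN led them at 11.8 and 10.6 CPM at 12 h and at 14.3 and 10.9 CPM at 14 h in Tet minus. OPTN in Tet plus stood at 33.1 and 29.8 CPM at 12 h and at 35.2 and 28.5 CPM at 14 h (log2 fold change 1.41, SE 0.0764, adjusted p 1.33e-09), and progranulin GRN was lower (-0.63, adjusted p 4.03e-06).

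Ribosome assembly genes were lower in nearly all cases, and 0 of them passed in a test of the difference against earlier hours. Of 42 genes of small subunit assembly 40 were lower and 0 higher (median -0.48, with -0.46 at 3 and 6 h and -0.48 at 8 and 10 h). UTP3 (-0.09, adjusted p 0.339) and BYSL (-0.08, adjusted p 0.373) did not pass. UTP20, a component of the processome on the nascent ribosomal RNA, stood at 255 and 299 CPM at 12 h and at 259 and 348 CPM at 14 h in Tet minus. UTP20 in Tet plus stood at 121 and 149.8 CPM at 12 h and at 147 and 169.9 CPM at 14 h. It was lower in every pair by about 2-fold (log2 fold change -0.98, SE 0.0534, adjusted p 1.36e-09), and DHX37, an RNA helicase of the same particle, followed it closely (log2 fold change -0.96, SE 0.0659, adjusted p 9.58e-09). WDR3 (-0.73, adjusted p 1.36e-08) and RRP12 (-0.81, adjusted p 1.78e-08) were lower as well. Of 46 large subunit assembly genes 45 were lower and 0 higher (median -0.45), among them MRTO4 (-0.80, adjusted p 9.4e-09), NOC3L (-0.77, adjusted p 1.31e-08) and MYBBP1A (-0.85, adjusted p 1.63e-08). NVL was the one that did not pass (0.02, adjusted p 0.795). In the model without the replicate number 28 small subunit and 34 large subunit genes were lower. With spike-in scaling 0 were lower in either group, with medians of -0.20 and -0.19.

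The RefSeq promoter of UTP20 (GRCh38.p14, plus strand, chr12:101279855-101280154, 250 bases before to 50 after the start), the small subunit gene with the lowest adjusted p, is shown with its single CACGTG in capitals, beginning 10 bases before the start.
UTP20: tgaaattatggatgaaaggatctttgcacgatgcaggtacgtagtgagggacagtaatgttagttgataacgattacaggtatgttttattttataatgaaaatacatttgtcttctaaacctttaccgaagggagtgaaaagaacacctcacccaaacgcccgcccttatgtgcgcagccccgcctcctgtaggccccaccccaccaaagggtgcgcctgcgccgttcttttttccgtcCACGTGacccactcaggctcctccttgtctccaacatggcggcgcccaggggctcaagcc
CACGTG occurred in 16 of 37 small subunit promoters and 14 of 38 large subunit promoters that the table holds, in 10.4% of the 10640 promoters matched to tested genes and in 7.43% of all 27305 promoters. Among the licensing promoters it occurred in 4 of 23. It also occurred in 9 of 23 promoters of the lysosome and autophagy group, where 16 of 34 genes were higher and 4 lower. In the neuronal cytoskeleton and synapse group it occurred in 0 of 29.

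Of 26 genes of the nucleolus, the small nucleolar RNP core and RNA polymerase I 22 were lower and 0 higher (median -0.42), with 1 higher without Tet plus or Tet minus replicate 2 of 14 h. CD3EAP, an RNA polymerase I subunit, stood at 58.0 and 60.3 CPM at 12 h and at 67.9 and 61.0 CPM at 14 h in Tet minus. CD3EAP in Tet plus stood at 22.1 and 27.9 CPM at 12 h and at 26.4 and 31.5 CPM at 14 h (log2 fold change -1.20, SE 0.0762, adjusted p 4.84e-09). NPM1, one of the most abundant nucleolar proteins, stood at 2322 and 2800.3 CPM at 12 h and at 2598 and 3346 CPM at 14 h in Tet minus. NPM1 in Tet plus stood at 1411 and 1790.5 CPM at 12 h and at 1579 and 2092 CPM at 14 h, a difference with a small error (log2 fold change -0.69, SE 0.0397, adjusted p 1.97e-09). NOLC1 (-0.80, adjusted p 1.02e-08) and NOP58 (-0.62, adjusted p 5.19e-08) were lower too. Of this nucleolar group 16 were lower without the replicate number and 0 with spike-in scaling (median -0.15). POLR3G, a subunit of RNA polymerase III, was among the 12 lowest fold changes by the naming rule (log2 fold change -1.21, SE 0.0876, adjusted p 1.71e-08). Of cytosolic ribosomal protein genes 50 of 74 were lower and 0 higher with a median of -0.18, which became 0.10 with spike-in scaling, and 9 passed without the replicate number or in a fit of all 44 libraries. The count higher was 1 without Tet plus or Tet minus replicate 1 of 14 h or Tet minus replicate 2 of 12 h. RPSA (-0.41, adjusted p 9.77e-07) and RPS12 (-0.46, adjusted p 1.35e-06) had the lowest adjusted p. Of 75 mitochondrial ribosomal protein genes 60 were lower (25 without the replicate number) and 0 higher, median -0.29, with MRPS12 at -0.81 (adjusted p 2.64e-07) and MRPL3 at -0.62 (adjusted p 5.95e-08). Of 20 chaperones of the cytosol and mitochondria 19 were lower and 0 higher (median -0.37), among them PHB (-0.63, adjusted p 5.18e-08) and HSPD1 (-0.48, adjusted p 1.29e-07). Of the chaperones 14 were lower without the replicate number and 0 with spike-in scaling (median -0.10).

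**Figure D5:**
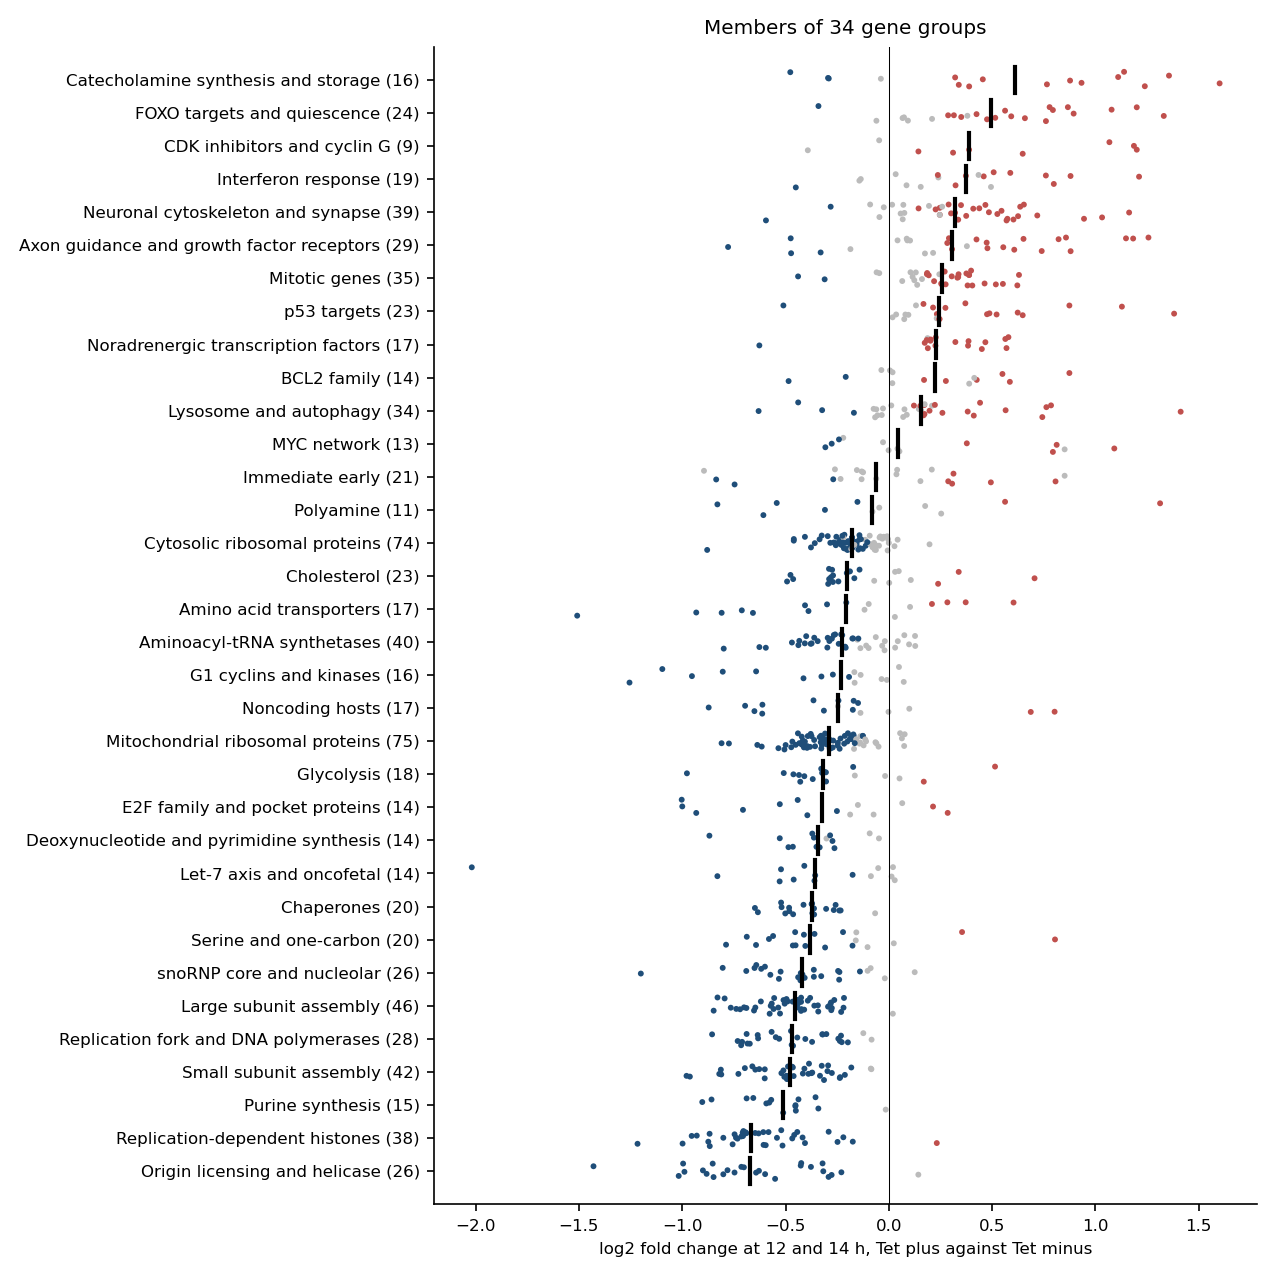
Log2 fold change of Tet plus against Tet minus at 12 and 14 h (horizontal axis) of each tested member of 34 gene groups (number tested in parentheses), red where higher, blue where lower and grey where not passed; black ticks are group medians. The medians run from -0.67 for origin licensing to 0.61 for catecholamine synthesis and storage, and TERT at -2.02 is the leftmost point.

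Genes of purine synthesis were lower in 14 of 15 cases with 0 higher (median -0.51), and ADSSL1, a muscle form, did not pass (-0.02, adjusted p 0.952). PPAT, the committing enzyme of the pathway, stood at 193 and 255 CPM at 12 h and at 209 and 313 CPM at 14 h in Tet minus. PPAT in Tet plus stood at 101 and 143 CPM at 12 h and at 116 and 156 CPM at 14 h. Replicate 2 was above replicate 1 in both arms, and the ratio between arms was near constant (log2 fold change -0.90, SE 0.0511, adjusted p 1.72e-09). PRPS2, which makes the activated ribose (log2 fold change -0.86, SE 0.0638, adjusted p 2.18e-08), PAICS (-0.59, adjusted p 9.12e-08) and IMPDH1, on the way to guanine nucleotides (-0.69, adjusted p 1.26e-07), were lower. Of the purine genes 11 were lower without the replicate number and 0 with spike-in scaling (median -0.24). The RefSeq promoter of PPAT (GRCh38.p14, minus strand, chr4:56435566-56435865, 250 bases before to 50 after the start) is shown as that of the purine gene with the lowest adjusted p, with CACGTG in capitals beginning 182 bases before the start; 2 of the 13 purine promoters in the table hold this motif.
PPAT: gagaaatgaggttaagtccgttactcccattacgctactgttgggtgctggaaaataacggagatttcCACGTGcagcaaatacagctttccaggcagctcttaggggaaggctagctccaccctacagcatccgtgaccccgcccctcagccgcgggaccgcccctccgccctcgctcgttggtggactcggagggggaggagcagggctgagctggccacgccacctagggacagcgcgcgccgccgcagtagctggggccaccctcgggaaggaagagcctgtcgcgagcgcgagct
Serine and one-carbon genes, which feed purine and thymidylate synthesis, were lower in 14 of 20 cases (8 without the replicate number) and higher in 2, among them AMT (0.80, adjusted p 0.0252), neither of which passed without the replicate number; 1 of them was called when replicate 1 of Tet plus or replicate 2 of Tet minus was left out at 12 h, or the reverse at 14 h. MTHFD1L (-0.79, adjusted p 1.78e-08), MTHFD2 (-0.58, adjusted p 6.44e-08) and PHGDH (-0.69, adjusted p 1.46e-06) were among the lower.

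Transcripts of amino acid transporters went both ways. Of 17 transporter genes 9 were lower (52.9%, against 23.1% of all genes tested) and 4 higher (23.5%, against 25.1%). The share higher was near that over all genes. These counts were 8 and 0 without the replicate number, and the median of -0.21 became 0.07 with spike-in scaling. SLC38A5, a glutamine and serine carrier, stood at 107 and 78.1 CPM at 12 h and at 114 and 72.6 CPM at 14 h in Tet minus. SLC38A5 in Tet plus stood at 37.6 and 28.3 CPM at 12 h and at 35.5 and 28.2 CPM at 14 h. It had the lowest fold change of all genes that met the naming rule for abundance (log2 fold change -1.51, SE 0.0628, adjusted p 1.73e-10). The large neutral transporter SLC7A5 (log2 fold change -0.93, SE 0.0636, adjusted p 9.4e-09) and the glutamine transporter SLC1A5 (log2 fold change -0.81, SE 0.059, adjusted p 1.78e-08) were also lower. Those higher were SLC1A4 (0.21, adjusted p 0.0267), SLC38A2 (0.28, adjusted p 0.000867), SLC38A10 (0.37, adjusted p 1.23e-05) and SLC43A2 (0.60, adjusted p 0.000164). Of 40 aminoacyl-tRNA synthetase genes 26 were lower (9 without the replicate number) and 0 higher (1 without Tet plus or Tet minus replicate 2 of 14 h), with a median of -0.23 that became 0.05 with spike-in scaling. EARS2, a mitochondrial member, had the lowest adjusted p (-0.63, adjusted p 8.17e-08).

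In glycolysis 13 of 18 genes were lower and 2 higher (8 and 0 without the replicate number), median -0.32. LDHA, which makes lactate, stood at 687 and 738 CPM at 12 h and at 804 and 847 CPM at 14 h in Tet minus. LDHA in Tet plus stood at 343 and 419 CPM at 12 h and at 371 and 430.2 CPM at 14 h (log2 fold change -0.98, SE 0.0508, adjusted p 1.24e-09). ENO1 (-0.51, adjusted p 8.83e-08) and GAPDH (-0.44, adjusted p 9.16e-07) were lower, and the neuronal enolase ENO2 was higher (0.51, adjusted p 1.3e-05), as was HK1 (0.17, adjusted p 0.0106). The count higher was 1 when replicate 1 of Tet minus or replicate 2 of Tet plus was left out at 12 h, or replicate 1 of Tet plus at 14 h. Polyamine genes went both ways, 5 of 11 lower (45.5%, against 23.1% of all genes tested) and 2 higher (18.2%, against 25.1%). These counts were 3 and 2 without the replicate number, and the median of -0.08 became 0.22 with spike-in scaling. ODC1, the first enzyme of synthesis, stood at 556 and 675 CPM at 12 h and at 599 and 724 CPM at 14 h in Tet minus. ODC1 in Tet plus stood at 317 and 369.9 CPM at 12 h and at 345 and 403 CPM at 14 h (log2 fold change -0.83, SE 0.044, adjusted p 1.33e-09). AMD1 (-0.54, adjusted p 5.33e-07) and SRM (-0.61, adjusted p 3.53e-06), also of synthesis, were lower, and PAOX, which oxidizes acetylated polyamines, was higher (log2 fold change 1.31, SE 0.165, adjusted p 6.01e-06), as was SAT2 (0.56, adjusted p 2.13e-05). Of 23 cholesterol genes 15 were lower and 3 higher, with a median of -0.20 that became 0.07 with spike-in scaling, and 3 were lower and 1 higher without the replicate number and 8 in a fit of all 44 libraries. HMGCS1 (-0.48, adjusted p 9.55e-06) was lower and TM7SF2 higher (0.71, adjusted p 2.97e-06).

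Genes of the sympathetic neuron were mostly higher. In the catecholamine group 12 of 16 tested genes were higher and 3 lower (7 and 0 without the replicate number), with a median of 0.61; 6 of the 22 listed genes, TH among them, did not pass the low-count filter. CADPS, a priming factor of dense-core vesicles, stood at 9.82 and 11.2 CPM at 12 h and at 10.4 and 10.9 CPM at 14 h in Tet minus. CADPS in Tet plus stood at 24.7 and 27.6 CPM at 12 h and at 29.5 and 26.5 CPM at 14 h. The 2 arms did not overlap and replicates were close (log2 fold change 1.36, SE 0.0808, adjusted p 3.01e-09). DBH, which turns dopamine into noradrenaline, stood at 10.2 and 4.03 CPM at 12 h and at 10.4 and 3.32 CPM at 14 h in Tet minus. DBH in Tet plus stood at 32.9 and 9.43 CPM at 12 h and at 35.7 and 9.58 CPM at 14 h. The arms overlapped, since replicate 2 of Tet plus lay below replicate 1 of Tet minus at both times, yet Tet plus was higher in each pair, by 1.21 to 1.77 on the log2 scale (log2 fold change 1.60, SE 0.0979, adjusted p 3.66e-09), and the call was lost without the replicate number in the model (adjusted p 0.086). The noradrenaline transporter SLC6A2 (log2 fold change 1.24, SE 0.0879, adjusted p 1.34e-08), the granule protein CHGB (log2 fold change 0.93, SE 0.0578, adjusted p 3.9e-09) and GCHFR, a regulator of the cofactor pathway (log2 fold change 1.11, SE 0.0771, adjusted p 1.09e-08), were higher without overlap. The 3 lower genes were GCH1 (-0.29, adjusted p 0.0182), PTS (-0.29, adjusted p 0.0204) and VGF (-0.48, adjusted p 0.000185), a count of 1 without Tet plus or Tet minus replicate 2 of 14 h.

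The RefSeq promoter shown next is that of CADPS, the catecholamine gene with the lowest adjusted p. Its window is GRCh38.p14, minus strand, chr3:62875367-62875666, 250 bases before to 50 after the start. It holds none of CACGTG, TTTGGCGC and TTTCCCGC, and so has no capitals.
CADPS: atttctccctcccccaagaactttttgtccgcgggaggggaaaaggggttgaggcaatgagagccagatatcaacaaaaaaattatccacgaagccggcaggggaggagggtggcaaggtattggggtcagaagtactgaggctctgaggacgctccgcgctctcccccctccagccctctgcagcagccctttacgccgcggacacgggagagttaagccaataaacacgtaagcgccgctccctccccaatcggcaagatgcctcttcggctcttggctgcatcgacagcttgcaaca
That these letters are absent from this window says nothing of other sites. Among the 12 catecholamine promoters matched, CACGTG occurred in 1 and TTTGGCGC or TTTCCCGC in 0. Over all promoters matched to tested genes the shares were 10.4% and 3.58%, so most promoters lack these letters.

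Of 17 noradrenergic transcription factor genes 15 were higher and 1, HEY1 (-0.63, adjusted p 0.002), was lower, with a median of 0.23; 3 were higher without the replicate number and 8 in a fit of all 44 libraries. PHOX2A, a master factor of the lineage, stood at 183 and 95.6 CPM at 12 h and at 163 and 83.0 CPM at 14 h in Tet minus. PHOX2A in Tet plus stood at 251 and 130.3 CPM at 12 h and at 247 and 145 CPM at 14 h. Replicate 1 was higher than replicate 2 in both arms, so the arms overlapped, while Tet plus was higher in 4 of 4 pairs (log2 fold change 0.58, SE 0.0599, adjusted p 7.81e-07). SATB1 (log2 fold change 0.57, SE 0.0511, adjusted p 1.67e-07) and SOX11 (log2 fold change 0.45, SE 0.0548, adjusted p 4.48e-06) were higher without overlap. GATA3 did not pass (0.19, adjusted p 0.0803). Of 39 genes of the neuronal cytoskeleton and synapse 26 were higher and 2 lower (5 and 0 without the replicate number), median 0.32. The microtubule protein DCX (log2 fold change 1.03, SE 0.0754, adjusted p 1.78e-08), the adhesion molecules L1CAM (0.94, adjusted p 3.9e-09) and CNTN1 (0.72, adjusted p 1.78e-08) and the RNA-binding protein ELAVL4 (0.65, adjusted p 2.72e-08) were higher, and the neurofilaments NEFL (-0.28, adjusted p 0.000721) and NEFM (-0.59, adjusted p 9.16e-07) were lower.

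Among 29 axon guidance and growth factor receptor genes 16 were higher (55.2%, against 25.1% of all genes tested) and 4 lower (13.8%, against 23.1%). These counts were 3 and 1 without the replicate number, and the median was 0.31. NRP1, a semaphorin and VEGF co-receptor, stood at 29.7 and 57.9 CPM at 12 h and at 32.8 and 62.8 CPM at 14 h in Tet minus. NRP1 in Tet plus stood at 63.6 and 129.7 CPM at 12 h and at 77.9 and 133 CPM at 14 h. Tet plus was higher in each pair, by 1.08 to 1.245 on the log2 scale (log2 fold change 1.15, SE 0.0584, adjusted p 1.05e-09). ALK, a receptor tyrosine kinase of neuroblastoma (log2 fold change 0.82, SE 0.058, adjusted p 1.3e-08), and PLXNA2 (log2 fold change 1.18, SE 0.0837, adjusted p 1.31e-08) were higher in 4 of 4 pairs. The 4 lower were KIT (-0.78, adjusted p 1.27e-06), SEMA3C (-0.47, adjusted p 0.00241), NRP2 (-0.33, adjusted p 0.000534) and EPHA3 (-0.48, adjusted p 0.0385).

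In the group of let-7 and oncofetal genes 9 of 14 were lower (4 without the replicate number) and 0 higher, median -0.36. TERT, the catalytic subunit of telomerase, stood at 10.5 and 12.0 CPM at 12 h and at 11.5 and 10.7 CPM at 14 h in Tet minus. TERT in Tet plus stood at 2.72 and 3.36 CPM at 12 h and at 1.71 and 3.23 CPM at 14 h. The mean was 4.05-fold lower in Tet plus, with no overlap (log2 fold change -2.02, SE 0.135, adjusted p 7.56e-09). HMGA1 (-0.53, adjusted p 4.15e-07) and PRMT1 (-0.46, adjusted p 1.14e-05) were also lower. Noncoding RNAs went both ways: 11 of 17 were lower and 2 higher, with a median of -0.24 that became 0.04 with spike-in scaling, and 6 were lower without the replicate number and 7 in a fit of all 44 libraries. The snoRNA host genes SNHG1 (-0.70, adjusted p 5.05e-07) and SNHG3 (-0.65, adjusted p 4.77e-07) were lower. The 2 higher were the nuclear RNAs MALAT1 (log2 fold change 0.69, SE 0.0434, adjusted p 4.7e-09) and NEAT1 (log2 fold change 0.80, SE 0.0577, adjusted p 1.56e-08), and neither passed in the fit of all 44 libraries (adjusted p 0.0892 and 0.156 in edgeR). Of 19 interferon response genes 10 were higher (6 without the replicate number) and 1, IFIT5 (-0.45, adjusted p 6.19e-06), was lower (2 without Tet plus 12 h replicate 2), with STAT2 (0.51, adjusted p 1.99e-06) and IRF9 (0.76, adjusted p 4.41e-06) among the higher. Of 21 immediate early genes 5 were higher (23.8%, against 25.1% of all genes tested) and 3 lower (14.3%, against 23.1%), shares no larger than over all genes (2 and 2 without the replicate number), with a median of -0.06 that became 0.27 with spike-in scaling, JUN being higher (0.49, adjusted p 9.44e-07) and FOSL2 lower (-0.75, adjusted p 5.82e-06).

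Among the 5015 genes that passed with the same sign in all 4 pairs and a mean log2 CPM of at least 3, the 12 highest and 12 lowest include several outside these groups. WFIKKN2, a secreted protease inhibitor that binds TGF-beta family ligands, stood at 43.3 and 13.3 CPM at 12 h and at 61.5 and 15.4 CPM at 14 h in Tet minus. WFIKKN2 in Tet plus stood at 115 and 38.9 CPM at 12 h and at 125 and 47.6 CPM at 14 h. Replicate 1 was above replicate 2 in each arm and the arms overlapped, with Tet plus higher in each pair by 1.03 to 1.62 on the log2 scale (log2 fold change 1.38, SE 0.0814, adjusted p 2.77e-09). WFIKKN2 lost its call without the replicate number in the model (adjusted p 0.153 in edgeR). PLEKHA6 (log2 fold change 1.35, SE 0.0937, adjusted p 1.09e-08), the retinol-binding protein receptor STRA6 (log2 fold change 1.301, SE 0.0865, adjusted p 7.55e-09), the sulfonylurea receptor ABCC8 (log2 fold change 1.26, SE 0.0792, adjusted p 4.65e-09), APOLD1 (log2 fold change 1.26, SE 0.0968, adjusted p 3.16e-08) and the splicing regulator CELF3 (log2 fold change 1.20, SE 0.0678, adjusted p 1.72e-09) were higher without overlap. CELF3 missed the threshold without the replicate number (adjusted p 0.0548 in edgeR). On the other side SDC1, a cell surface proteoglycan, stood at 27.1 and 38.4 CPM at 12 h and at 27.1 and 36.7 CPM at 14 h in Tet minus. SDC1 in Tet plus stood at 9.50 and 19.1 CPM at 12 h and at 9.12 and 16.2 CPM at 14 h (log2 fold change -1.29, SE 0.0905, adjusted p 1.23e-08). The mitochondrial peptidase MIPEP (log2 fold change -1.25, SE 0.0966, adjusted p 3.34e-08), DDN (log2 fold change -1.25, SE 0.0713, adjusted p 1.76e-09), the organic anion transporter SLCO4A1 (log2 fold change -1.23, SE 0.0748, adjusted p 3.66e-09), HPDL (log2 fold change -1.20, SE 0.0646, adjusted p 1.33e-09) and the lysophosphatidic acid receptor LPAR3 (log2 fold change -1.17, SE 0.0781, adjusted p 7.55e-09) were lower without overlap.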

How the data were processed

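RNA from 44 cell cultures was sequenced after ribosomal RNA depletion with a directional kit, with ERCC spike-in RNA added before processing, per the labels' protocols. The deposited values are raw read counts per gene, which the authors made with TopHat2 2.0.5 and HTSeq on hg19, per the submitters' processing notes; neither annotation nor strand setting is given in the sources used here. The table held 23367 gene rows, 3929 of them at 0 in all 44 libraries, and 92 ERCC rows; the latter entered no test and no gene library size. Counts of the 8 libraries (17839275 to 25313546 a library) were scaled by TMM, filtered with filterByExpr and fitted with edgeR 4.0.16 (R 4.3.3, limma 3.58.1) by the quasi-likelihood test with arm, time and replicate number as terms, leaving 4 residual degrees of freedom. The values at 12 h, at 14 h and their change came from 4 group means plus replicate number (3 degrees of freedom), and differences between windows from 24 libraries with 12 group means plus replicate number (11 degrees of freedom). The p-values were adjusted by Benjamini-Hochberg over all genes tested, and an adjusted p under 0.05 passed.

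Replicate numbers pair the libraries: they come from the labels and mark shared lanes, and same-numbered libraries of the arms deviated together (r = 0.822 at 12 h and 0.784 at 14 h over 10061 genes). The replicate number was therefore kept in the model. Beyond that term, the fit takes the 12 h and 14 h libraries of a replicate as independent. Over all genes together, counting noise alone did not account for the spread between replicates in any group (chi-square averaged over genes, 25.1 to 51.3 by group). Abundant genes can weigh most in such an average.

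The libraries, the 34 gene lists, the 4 marker lists and the tests were chosen with earlier results of these data known. Genes were named by rule: tested MYC network members, the 12 highest and 12 lowest fold changes of genes that passed, had one sign in all 4 pairs and averaged 3 or more in log2 CPM, the 4 lowest adjusted p of each list, and up to 6 changes each way between windows. The promoters printed are those of the listed gene with the lowest adjusted p in 4 lists. Other genes, such as members that ran against their list or did not pass, were chosen after their values were seen. Some genes that these rules name are not reported here. Alternatives were DESeq2 1.42.0 and its size factors, no low-count filter, spike-in scaling, other replicate terms, each library left out, and a fit of all 44 libraries. The scripts were tested on simulated counts. Promoters came from the RefSeq table for GRCh38.p14, a different build from that of the counts, and were matched by symbol for 77.0% of tested genes (10717 of 13925), so motif shares over tested genes are descriptions and test nothing.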

Additional observations from a re-analysis of the deposited data

Results flagged for a closer look

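The arm difference at 12 and 14 h differed from that at other times by a test of the difference itself in 36 genes against 8 and 10 h and in 79 genes against 3 and 6 h. Against 8 and 10 h the log2 difference was 0.9974 for TNFAIP8L1 and 0.5905 for SUN2. It was -1.392 for HIST1H2AB, -1.324 for HIST1H3D, -1.261 for HIST1H3H, -1.245 for HIST1H2AH, -1.223 for HIST1H2BJ and -1.217 for HIST1H4B. In edgeR without the replicate number, TNFAIP8L1 (adjusted p 0.366), HIST1H2BJ (0.0702) and SUN2 lost the call, and the other histone genes kept it. SUN2 was called in 2 and HIST1H2BJ in 7 of 8 fits that left out 1 library, HIST1H2BJ being lost without Tet plus 14 h replicate 1 (adjusted p 0.0582 in edgeR), and the other genes of this window in 8 of 8.

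Against 3 and 6 h the log2 difference was 1.472 for TNFAIP8L1, 1.223 for PIF1, 0.9691 for PLXNA2, 0.9459 for UBE2C, 0.9135 for PSRC1 and 0.8787 for PLK1. It was -1.305 for CCNE2, -1.266 for DTL, -1.253 for ZNF367, -0.9944 for CCNE1, -0.9008 for WDR76 and -0.8518 for CDC6. PLXNA2 was called in 6 of 8 such fits, missing the threshold without Tet minus 12 h replicate 2 and Tet minus 14 h replicate 2 (adjusted p 0.0567 and 0.0563 in edgeR), PSRC1 and PLK1 in 7 of 8, and the others in 8 of 8. Of the genes named against 3 and 6 h, ZNF367 alone kept its call in edgeR without the replicate number (adjusted p 0.0202). All others lost it (adjusted p 0.107 to 0.947). The mitotic sum peaked at 8 h in Tet minus and at 10 h in Tet plus, and the part of this timing in these values was not tested.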

How the results depend on the processing

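Results rest on 2 libraries a group, and the depth of 17839275 to 25313546 counts limits mainly low genes. With spike-in scaling 447 genes passed at 12 and 14 h together, 2 at 12 h, 1 at 14 h, and 0 against 8 and 10 h and against 3 and 6 h. Without the replicate block these counts were 2197, 0, 136, 8 and 1, and the block within time or lane gave 2 for the change from 12 to 14 h, 59 against 8 and 10 h and 128 against 3 and 6 h. The fit of all 44 libraries gave 4462 at 12 and 14 h together, 1846 at 12 h and 2353 at 14 h. DESeq2 gave 11 for the change, 59 against 8 and 10 h and 267 against 3 and 6 h, and no low-count filter gave 6 for the change. Leaving out 1 library gave 1842 to 4950 genes at 12 h, 0 to 16 for the change, 12 to 37 against 8 and 10 h and 27 to 139 against 3 and 6 h. Other counts over all genes stayed within 1.5 times. Of the 162 named genes called at 12 and 14 h, 161 kept their side of the threshold in DESeq2, 135 without the replicate block and 37 with spike-in scaling. Calls lost without the block include those of E2F1 (adjusted p 0.132 in edgeR), PHOX2A (0.259), ALK (0.108) and L1CAM (0.142).

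Several MYC network values changed sign: with spike-in scaling MAX had 0.2461, MXI1 0.02925, MNT 0.05377 and MLXIP 0.2727, and MYCN and MGA lost their calls (-0.03588 and -0.002242). MLXIP had 0.009862 without the replicate block, 0.0005856 with the block within time, and -0.101 to 0.06947 with 1 library left out. With 1 library left out MAX ranged from -0.07129 to 0.01704 and MYCL1 from -0.004286 to 0.09574. Of the genes whose sign changed MXI1 alone was called, at -0.24. The cause of these changes was not tested.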
